A study of Mus musculus with 18 samples.

Results

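The 32 genes described here encode the sensors, transcription factors, chaperones, disulfide enzymes and degradation factors with which mouse T cells meet unfolded protein in the endoplasmic reticulum (ER). They were chosen as named genes of this pathway, each read from the probe set whose single annotated symbol is that gene and, where a gene has several, from the one with the highest mean over 18 arrays. All 32 of 32 genes had a probe set, and all passed a filter that left 12834 of 18193 genes: a mean of at least 65.9 intensity units in 1 or more of the 6 groups. Ero1l is named here by its older symbol, and its probe set is annotated with the current one, Ero1a.

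RNA of sorted CD4+ cells was measured on 18 Affymetrix M430v2 arrays, 3 for each of 6 groups. Regulatory T cells (Treg, sorted as CD25+) and conventional T cells (Tconv, sorted as CD25-) of fat came from epididymal abdominal fat of male C57BL/6 mice aged 25 to 35 weeks, with 8 to 10 mice pooled per array. Treg and Tconv of lymph node came from pooled cervical, inguinal and mesenteric nodes of C57BL/6 mice aged 32 to 36 weeks, with 3 to 6 mice per array. Treg and Tconv of thymus came from BDC2.5/NOD mice aged 4 to 6 weeks, a T cell receptor transgenic line on another background, with 3 to 6 mice per array and depletion of CD8a+ cells ahead of sorting. Every sort took B220-, CD11b-, CD8a-, CD4+ cells; TCRb+ was required in addition for fat. Sex is stated for the fat mice alone, and thymus therefore differs from the other tissues in strain and age as well. All RNA was amplified in 2 rounds, and the SD, SE and p values describe how pools of mice varied. All 6 Treg markers tested (Foxp3, Il2ra, Ctla4, Ikzf2, Tnfrsf18, Tnfrsf4) were higher in Treg than in Tconv in each of the 3 tissues; Il2ra encodes the sort marker CD25 and is no finding. All 9 measured T cell markers averaged above the pooled median of the 18 arrays, 65.9, in every group.

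The ER folds secreted and membrane proteins. When unfolded protein builds up, the kinase Perk (gene Eif2ak3) slows translation and raises translation of Atf4, a factor for amino acid supply and stress genes; the kinase and nuclease Ire1 (Ern1) splices Xbp1 mRNA, whose protein induces cochaperones, translocation and degradation factors; and Atf6 is cut in the Golgi to a factor for chaperone genes. The branches share many targets, and the assignment used here is by the best known one. The arrays measured total transcript, so neither splicing of Xbp1, phosphorylation of eIF2alpha nor cleavage of Atf6 was measured. In sorted pools, fewer cells of a type and less RNA per cell cannot be told apart.

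Promoter elements of this pathway were searched for in the members. The members were chosen as named genes of the same pathway, so the counts below describe the list and do not test it. In windows of 250 bases before to 50 after the annotated start (RefSeq, GRCm38.p6), available for 29 of the 32 members, 8 members held the ER stress element ERSE (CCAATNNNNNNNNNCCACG on either strand): Calr, Canx, Creld2, Dnajc3, Hsp90b1, Hspa5, Pdia6 and Syvn1. The element occurred in 0.119% of all 32851 promoter windows. ERSE-II (ATTGGNCCACG) occurred in Dnajb11 and Herpud1 and in 0.0365% of windows. The core of the Atf4 composite element (TGATGNAA) occurred in Asns, Chac1, Herpud1 and Trib3 and in 3.97% of windows, while the Xbp1 element core TGACGTGG was found in 0 of the 29 members and 0.676% of windows. Elements were searched on both strands, and no member held both ERSE and ERSE-II. A match is a description of these letters and not of binding. The stretches below run 5′ to 3′ on the gene's own strand, with the matched element in capitals. All 8 ERSE members are shown, since Hspa5 and Dnajc3 moved in opposite directions between fat and lymph node. Herpud1 and Asns hold other elements and are shown as members that differed between Treg and Tconv. Hspa5 lies at chr2:34772015-34772053 (+), Dnajc3 at chr14:118937817-118937855 (+), Syvn1 at chr19:6046522-6046560 (+), Hsp90b1 at chr10:86705523-86705666 (-) with 2 elements, Calr at chr8:84847065-84847103 (-), Canx at chr11:50325790-50325828 (-), Creld2 at chr15:88819510-88819548 (+) and Pdia6 at chr12:17266481-17266519 (+). Herpud1 at chr8:94386307-94386397 (+) carries the Atf4 core first and ERSE-II second, and Asns at chr6:7693215-7693242 (-) carries the Atf4 core.
Hspa5: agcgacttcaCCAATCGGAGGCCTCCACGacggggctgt
Dnajc3: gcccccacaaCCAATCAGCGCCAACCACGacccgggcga
Syvn1: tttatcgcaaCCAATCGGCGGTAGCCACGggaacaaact
Hsp90b1: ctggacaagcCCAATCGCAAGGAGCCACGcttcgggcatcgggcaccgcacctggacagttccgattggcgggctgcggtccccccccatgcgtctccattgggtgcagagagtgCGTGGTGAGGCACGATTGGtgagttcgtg
Calr: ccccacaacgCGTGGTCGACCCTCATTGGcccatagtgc
Canx: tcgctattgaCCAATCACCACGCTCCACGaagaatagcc
Creld2: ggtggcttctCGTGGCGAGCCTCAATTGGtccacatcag
Pdia6: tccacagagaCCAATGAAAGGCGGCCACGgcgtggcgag
Herpud1: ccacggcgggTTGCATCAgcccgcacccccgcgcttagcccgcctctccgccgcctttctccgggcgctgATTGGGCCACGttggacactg
Asns: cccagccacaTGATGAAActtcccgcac

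Values are probe set intensities on the linear scale that the authors deposited. Within a tissue they are given as deposited. The medians of the fat arrays (76.9 to 82.2) lay above those of the other arrays (57.9 to 63.0), so fat was set against lymph node after quantile normalization of all 18 arrays, called the common scale. Differences are log2 ± SE from limma, with Benjamini-Hochberg adjustment over 12834 genes, and a gene is said to differ at an adjusted p under 0.05. The array file numbers fall into 5 blocks by their leading digits, a possible batch that the labels do not explain, and the last of them holds the fat arrays numbered 1 and the lymph node arrays numbered 3. On both lymph node arrays numbered 3 several members deviated from their group means. Hsp90b1 was at -1.30 log2 units in Treg and -1.05 in Tconv, Trib3 at -0.60 and -0.61, and Manf at -0.63 and -0.39. Ppp1r15a was high, at 0.44 and 0.48. The SD of the member deviations was 0.36 in Treg and 0.30 in Tconv, against 0.27 and 0.22 over all genes. Wide deviations were not confined to these arrays. The SD was 0.36 on fat Tconv array 1 (0.31 over all genes) and 0.31 on lymph node Tconv array 1 (0.26 over all genes). On the lymph node arrays numbered 3 the median deviation was 0.037 in Treg and -0.046 in Tconv. Over the 18 arrays it ranged from -0.13, on fat Tconv array 1, to 0.093. The median member level, 8.16 and 7.91 log2 units as deposited, was nevertheless the lowest of the 18 arrays. Calls lost without both lymph node arrays numbered 3 are given with and without them. Those lost without the last block of file numbers are named below, mostly without values.

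**Figure D1:**
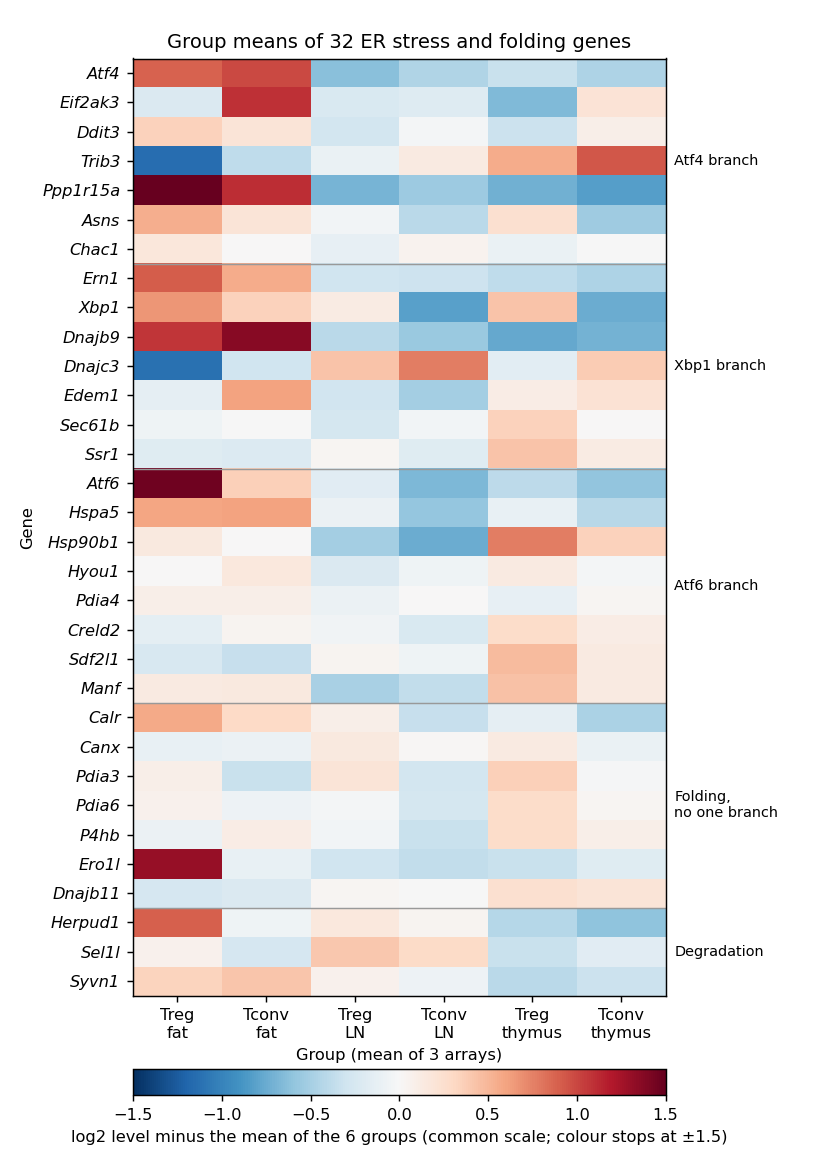
Mean log2 level of each of the 32 genes (rows, grouped by branch) in the 6 groups (columns, 3 arrays each), minus the mean of the 6 groups for that gene, on the common scale; red is above and blue below, and colours stop at 1.5 log2 units. The highest of the 6 groups was fat Treg for 11 genes, thymus Treg for 10 and fat Tconv for 7.

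Treg were compared with Tconv of the same tissue to see which of these genes set the 2 lineages apart. In fat, 6 of 32 genes differed (18.8%), against a background of 11.6% of all genes tested: Ero1l, Atf6 and Herpud1 were higher in Treg (3 members, background 6.36% higher) and Eif2ak3, Dnajc3 and Edem1 lower (3 members, background 5.24% lower). In lymph node 1 of 32 differed (background 4.38%), Xbp1, which was higher (background 3.26% higher and 1.11% lower). In thymus 3 of 32 differed (background 5.11%), with Asns and Xbp1 higher (background 3.3%) and Eif2ak3 lower (background 1.82%). With same-numbered arrays paired as a block, the counts were 9 in fat (background 20.8% in that fit), 3 in lymph node (background 8.17%) and 4 in thymus (background 12.1%). The 3 Treg and 3 Tconv arrays did not overlap for 9 members in fat (background 25.3%), 4 in lymph node (background 16.6%) and 8 in thymus (background 19.4%). In the unpaired fit the share called was 3.1% in lymph node, from 1 gene and only slightly below its background. It was 18.8% in fat and 9.4% in thymus, above theirs, each from few genes. This order did not hold for lymph node in the paired fit, and no reading is drawn from the paired or overlap counts. The median log2 difference over the members was 0.06 in fat, 0.13 in lymph node and 0.17 in thymus, against 0.01, -0.02 and -0.02 over all genes tested. Over the 3 tissues, 24 members differed in none, 6 in 1 tissue, 2 in 2 tissues (Xbp1 and Eif2ak3) and 0 in all 3. The matching shares over all genes are not given here, so no reading is drawn from these counts. The difference between Treg and Tconv itself differed between fat and lymph node for 4 of 32 members (background 4.92%), further up in fat for Ero1l and Herpud1 (background 2.18%) and further down for Eif2ak3 and Edem1 (background 2.73%). Other features also moved between Treg and Tconv in fat, and their part in these differences was not tested. Of 20 immediate early genes, 7 were higher and 3 lower in fat Treg, with summed intensities of 88330 to 105052 in fat Treg and 72613 to 83135 in fat Tconv. Of 12 cell division genes, 0 were higher and 3 lower, with a median of -0.76 and sums of 4879 to 6080 in fat Treg and 6428 to 11019 in fat Tconv. Of 6 plasma cell markers tested, 2 were higher and 0 lower, with a median of 0.65. The plasma cell markers measured summed to 5823 to 6927 in fat Treg and 1913 to 2716 in fat Tconv.

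The 3 sensors come first. Eif2ak3, the Perk kinase of the Atf4 branch, read 244, 274 and 206 in fat Treg, against 597, 636 and 576 in fat Tconv. It read 197, 188 and 209 in lymph node Treg, against 238, 191 and 173 in lymph node Tconv. It read 154, 147 and 141 in thymus Treg, against 318, 258 and 246 in thymus Tconv. The groups did not overlap in fat or thymus, where every Treg array was lower, and they overlapped in lymph node. The difference was -1.33 ± 0.14 in fat (limma adjusted p = 4.44e-06), -0.88 ± 0.14 in thymus (limma adjusted p = 0.000927) and -0.01 ± 0.14 in lymph node. The difference in fat was 1.32 ± 0.20 log2 units further down than that in lymph node (difference of differences -1.32, limma adjusted p = 0.000525), whereas the corresponding value for thymus against lymph node, -0.88 ± 0.20, did not pass (limma adjusted p = 0.105) unless same-numbered arrays were paired as a block (limma adjusted p = 0.0365). The other 2 Eif2ak3 probe sets are dim, with means of 22.8 and 11.1, and gave 0.03 and -0.12 in fat.

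Atf6, the sensor and factor of its own branch, read 343, 262 and 290 in fat Treg, against 132, 154 and 159 in fat Tconv. Every fat Treg array was above every fat Tconv array, a difference of 1.01 ± 0.15 (limma adjusted p = 0.000125); the 2 further Atf6 probe sets gave 0.69 and 0.59. In lymph node it read 75.7, 73.1 and 87.0 in Treg, against 47.0, 55.9 and 66.9 in Tconv, 0.48 ± 0.15 (limma adjusted p = 0.0898, and 0.0477 with same-numbered arrays paired), where the other Atf6 probe sets gave 0.02 and -0.02. In thymus the difference was 0.20 ± 0.15, from a gene near the filter level.

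Ern1, the Ire1 sensor, did not pass in any tissue on the probe set used. Its values in fat were 944, 447 and 663 in Treg and 664, 426 and 482 in Tconv, which overlap, with a difference of 0.35 ± 0.23. Of the dimmer Ern1 probe sets, one with a mean of 139 gave 1.19 ± 0.18 in fat and another with a mean of 103 gave 0.11 ± 0.17, so the reading of this gene depends on the probe set.

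Xbp1, the factor that Ire1 activates by splicing, was higher in Treg of lymph node and thymus. It read 1154, 1342 and 1248 in lymph node Treg, against 538, 874 and 571 in lymph node Tconv. It read 2104, 1690 and 1114 in thymus Treg, against 977, 691 and 533 in thymus Tconv. In fat it read 2738, 2570 and 1956 in Treg, against 2259, 1673 and 1655 in Tconv. Treg and Tconv arrays did not overlap in lymph node or thymus and did overlap in fat. The differences were 0.95 ± 0.25 (limma adjusted p = 0.040), 1.15 ± 0.25 (limma adjusted p = 0.00992) and 0.38 ± 0.25 (limma adjusted p = 0.468). Pair by pair, thymus gave 1.11, 1.29 and 1.06 and lymph node 1.10, 0.62 and 1.13 in replicates 1 to 3. Of the other 3 Xbp1 probe sets, the 2 brighter ones gave 0.70 and 0.92 in lymph node and 0.78 and 1.36 in thymus, and the dimmest gave 0.18 and 0.41. The lymph node call is close to the threshold: without both arrays numbered 3 the difference was 0.86 (limma adjusted p = 0.324), and it was also lost on leaving out Treg array 1, 2 or 3 or Tconv array 1 or 3 alone (limma adjusted p 0.0873 to 0.181) and on the common scale (0.93, limma adjusted p = 0.0805). The thymus call was lost without Treg array 1 (0.95, limma adjusted p = 0.0663) or Tconv array 3 (0.95, limma adjusted p = 0.0631), and in a fit of the thymus arrays alone (1.15, limma adjusted p = 0.105).

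**Figure D2:**
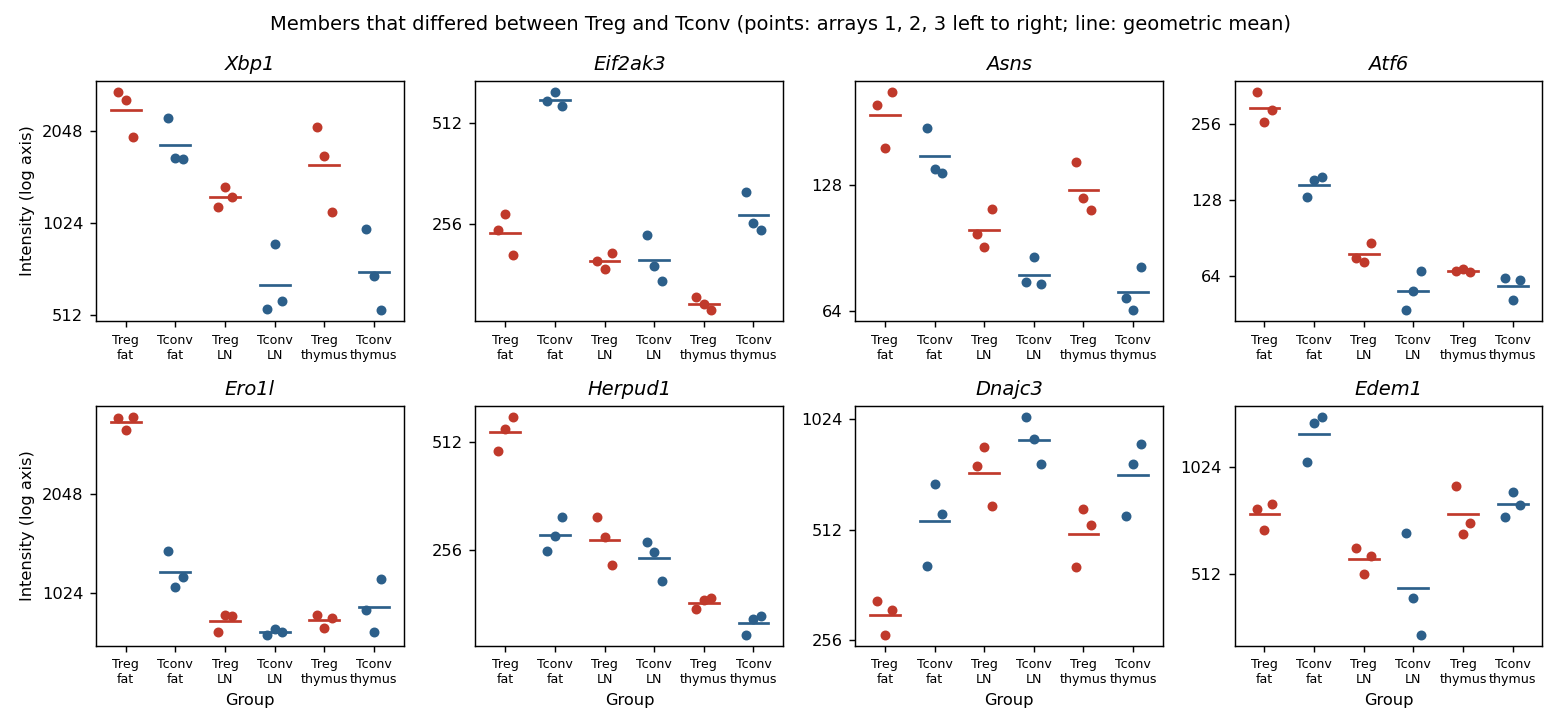
Deposited intensity (log axis) of the 8 genes that differed between Treg and Tconv in at least 1 tissue, in the 6 groups; each point is 1 array and each line the geometric mean of 3. In fat, all Treg arrays of Ero1l (3192 to 3517), Atf6 and Herpud1 lie above all Tconv arrays, and all Treg arrays of Eif2ak3, Dnajc3 and Edem1 lie below them.

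Among the targets of the Xbp1 branch, the members that differed were lower in fat Treg. Dnajc3 (P58IPK, an ER cochaperone) read 328, 265 and 310 in fat Treg, against 408, 681 and 566 in fat Tconv. The groups did not overlap, and the difference was -0.85 ± 0.21 (limma adjusted p = 0.0136); the differences in lymph node and thymus were -0.30 and -0.53 and did not pass. All 5 Dnajc3 probe sets were negative in fat, from -0.28 to -1.26. Edem1, a lectin that passes misfolded glycoproteins to degradation, read 778, 681 and 808 in fat Treg, against 1054, 1365 and 1419 in fat Tconv, with no overlap and a difference of -0.75 ± 0.20 (limma adjusted p = 0.0178). Edem1 read 606, 513 and 575 in lymph node Treg, against 669, 440 and 346 in lymph node Tconv, which overlap, and the difference of differences between fat and lymph node was -1.02 ± 0.28 (limma adjusted p = 0.0444; -0.79 and adjusted p = 0.191 without both lymph node arrays numbered 3). The second Edem1 probe set, about as bright (mean 757 against 775), gave -0.24 ± 0.14 in fat. Both fat calls were lost without Treg array 2, Tconv array 2 or Tconv array 3 (Dnajc3 -0.76, -0.68 and -0.81 with limma adjusted p 0.0634, 0.0840 and 0.0530; Edem1 -0.68, -0.70 and -0.67 with limma adjusted p 0.0760, 0.0710 and 0.0851). The remaining targets of the branch, Dnajb9 (ERdj4, a cochaperone), Sec61b (a subunit of the translocon) and Ssr1 (a subunit of the translocon-associated complex), ranged from -0.25 to 0.36 over the 3 tissues and did not pass.

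Ero1l, the oxidase that recharges protein disulfide isomerase, had the largest Treg difference of the members in fat. It read 3493, 3192 and 3517 in fat Treg, against 1376, 1071 and 1151 in fat Tconv. In lymph node it read 784, 879 and 877 in Treg, against 768, 797 and 781 in Tconv, and in thymus 883, 804 and 863 in Treg, against 914, 782 and 1136 in Tconv. The fat groups are far apart and those of the other tissues overlap. The fat difference was 1.51 ± 0.14 (limma adjusted p = 5.53e-07), and the difference of differences from lymph node was 1.40 ± 0.19 (limma adjusted p = 0.000195). The other 2 Ero1l probe sets gave 1.26 and 1.03 in fat.

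Herpud1, an ER membrane protein of the degradation machinery, read 482, 556 and 601 in fat Treg, against 254, 280 and 316 in fat Tconv. The groups did not overlap, and the difference was 0.95 ± 0.14 (limma adjusted p = 0.00015). In lymph node it read 316, 279 and 233 in Treg, against 270, 254 and 211 in Tconv, which overlap. In thymus it read 175, 186 and 188 in Treg, against 149, 165 and 168 in Tconv, 0.19 ± 0.14. The difference of differences between fat and lymph node was 0.78 ± 0.20 (limma adjusted p = 0.0305), lost in 11 of 21 alternatives. Its partners in retrotranslocation, Sel1l (the adaptor) and Syvn1 (the ubiquitin ligase Hrd1), differed in no tissue without pairing; Sel1l in fat was 0.34 ± 0.13 (limma adjusted p = 0.111, and 0.0385 with same-numbered arrays paired).

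Asns, asparagine synthetase and a target of Atf4, was the member of that branch that was higher in thymus Treg. It read 146, 120 and 112 in thymus Treg, against 69.0, 64.5 and 81.9 in thymus Tconv. The groups did not overlap, 0.81 ± 0.16 (limma adjusted p = 0.00409). In fat it read 199, 158 and 214 in Treg, against 176, 140 and 137 in Tconv, and in lymph node 98.1, 91.2 and 112 in Treg, against 75.3, 86.2 and 74.4 in Tconv; these differences, 0.33 and 0.35, did not pass. Atf4 itself was -0.03 in fat, -0.13 in lymph node and 0.13 in thymus. Ddit3 (Chop), Trib3 (a pseudokinase induced by Atf4 and Chop), Ppp1r15a (Gadd34, which restores translation) and Chac1 (which breaks down glutathione) did not pass in any tissue in the unpaired fit. With same-numbered arrays paired, Trib3 was lower in Treg of fat (-0.73, limma adjusted p = 0.000464) and thymus (-0.38, limma adjusted p = 0.0450). In fat Trib3 read 63.8, 63.0 and 55.1 in Treg, against 97.6, 109 and 95.5 in Tconv. The fat Treg values lie below the filter level of 65.9, so the size of the fat difference is uncertain. Ppp1r15a, also in the paired fit, was higher in Treg of fat (0.58, limma adjusted p = 0.00186), by 0.70 more than in lymph node (limma adjusted p = 0.0104).

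None of the main chaperones Hspa5, Hsp90b1, Calr and Canx passed between Treg and Tconv in the unpaired fit. Hspa5 (BiP, the main ER Hsp70) read 2389, 2595 and 3105 in lymph node Treg, against 1979, 1916 and 1873 in lymph node Tconv, groups that do not overlap, with a difference of 0.48 ± 0.15 that passed only with pairing (limma adjusted p = 0.110 without it and 0.0489 with it). In fat it was 0.06 and in thymus 0.32, and neither passed. Hyou1, Pdia4, Creld2, Sdf2l1, Manf, Calr, Canx, Pdia3, Pdia6, P4hb and Dnajb11 gave differences from -0.21 to 0.52 over the 3 tissues, and none passed. For the difference between thymus and lymph node in the Treg effect, 0 of 32 members passed in limma (background 0.304%), and 1 had an unadjusted p under 0.05.

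**Figure D3:**
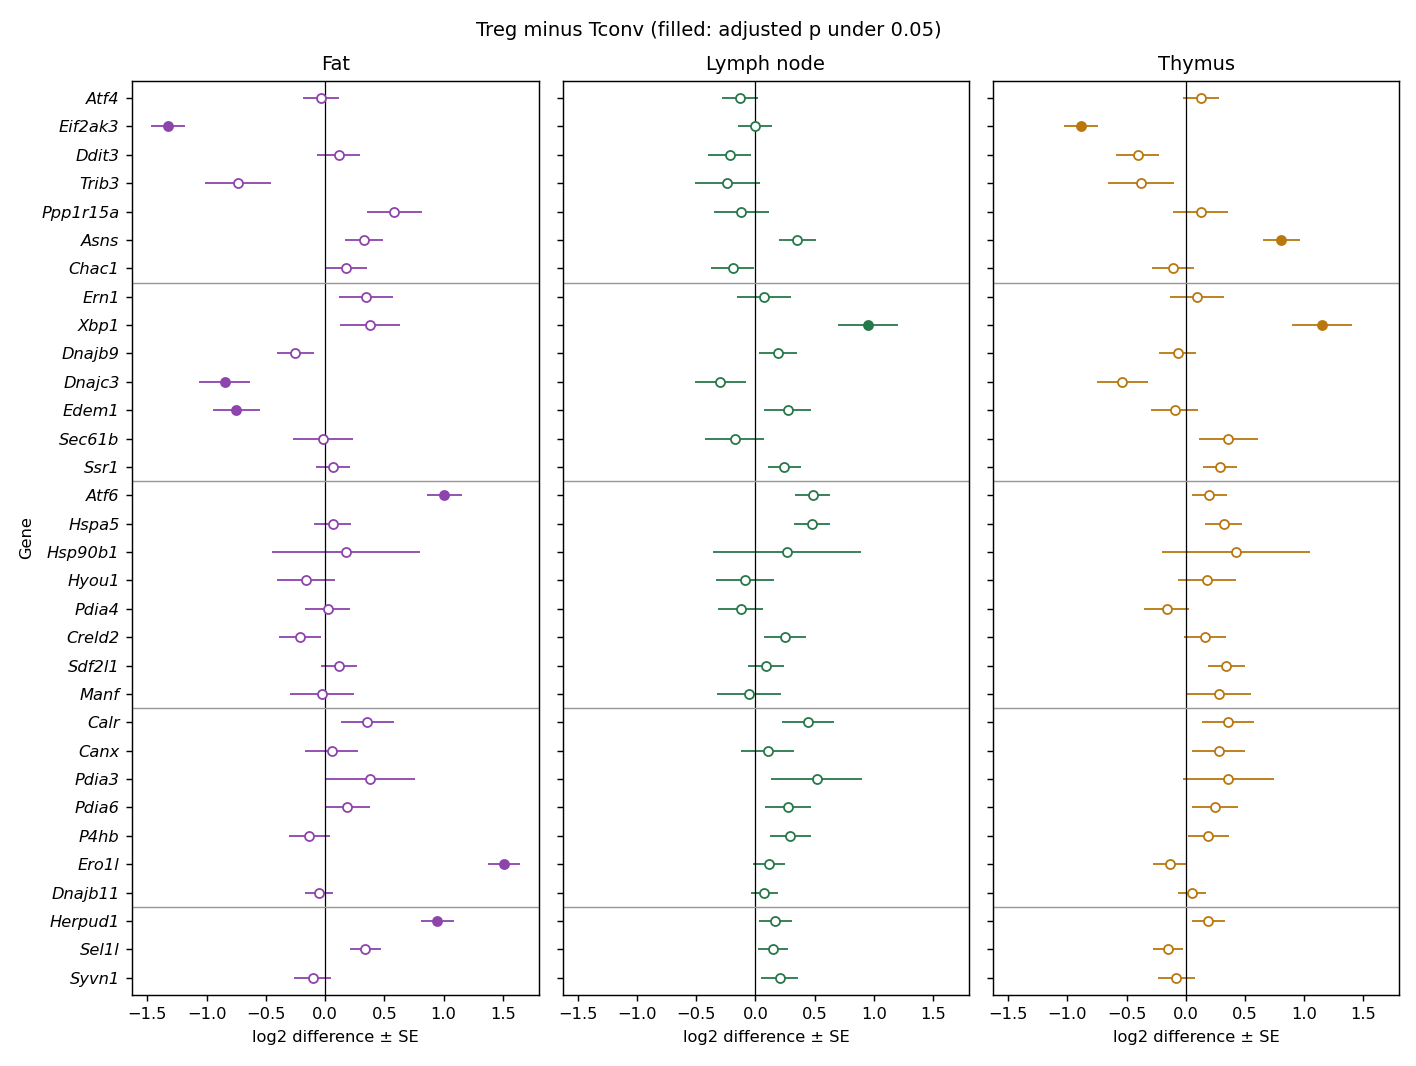
Log2 difference between Treg and Tconv with its SE for each gene in fat, lymph node and thymus (3 arrays a group, deposited scale); filled points have an adjusted p under 0.05. Filled points number 6 in fat, 1 in lymph node and 3 in thymus, and the SE of Hsp90b1 (0.62) is the widest.

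Fat was then compared with lymph node within each lineage, on the common scale, to see how the same genes differ by tissue. In Treg 14 of 32 members differed, against 34.5% of all genes tested; 11 were higher in fat (background 16.3% higher) and 3 lower (background 18.2% lower). In Tconv 13 of 32 differed, against 22.9% of all genes; 11 were higher (background 11.3%) and 2 lower (background 11.6%). The median over the members was 0.24 in Treg and 0.27 in Tconv, against 0.01 and -0.03 over all genes. As deposited, the median of all genes moved to 0.37 in Treg and 0.33 in Tconv, and the split became 16 members higher and 1 lower in Treg and 18 higher and 1 lower in Tconv; with each array centred on its median it was 9 and 4 in Treg and 11 and 2 in Tconv. In both lineages 7 members were higher (Atf4, Ppp1r15a, Asns, Ern1, Dnajb9, Atf6 and Hspa5) and 2 lower (Dnajc3 and Sel1l). Of these, Sel1l did not pass in either lineage as deposited. The share of all genes called in both lineages is not given here, so no reading is drawn from these counts. The 3 fat and 3 lymph node arrays did not overlap for 17 members in Treg (background 49.7%) and 17 in Tconv (background 36.6%).

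In the Atf4 branch, Atf4 read 1556, 1694 and 2033 on the common scale in fat Treg, against 605, 567 and 676 in lymph node Treg. It read 1715, 2047 and 1903 in fat Tconv, against 731, 613 and 744 in lymph node Tconv. No arrays overlapped, and the differences were 1.51 ± 0.14 in Treg (limma adjusted p = 3.12e-07) and 1.44 ± 0.14 in Tconv (limma adjusted p = 1.29e-06). Ppp1r15a read 708, 1037 and 816 in fat Treg, against 141, 133 and 231 in lymph node Treg, and 499, 605 and 617 in fat Tconv, against 158, 140 and 269 in lymph node Tconv. Its differences, 2.37 ± 0.24 and 1.66 ± 0.24, were the largest of the members in Treg and the second in Tconv, with limma adjusted p of 7.21e-07 and 7.25e-05. Asns was 0.59 and 0.60 higher, with 172, 140 and 187 in fat Treg against 106, 101 and 123 in lymph node Treg, and 158, 118 and 116 in fat Tconv against 83.9, 95.3 and 77.8 in lymph node Tconv, without overlap (limma adjusted p = 0.00838 and 0.0107). Other members of the branch were called in 1 lineage. Ddit3 was higher in fat Treg (0.62 ± 0.17, limma adjusted p = 0.00894; 0.44 and adjusted p = 0.0751 with each array centred on its median; 0.22 in Tconv, which did not pass) and Trib3 lower in fat Treg (-1.04 ± 0.27, limma adjusted p = 0.00637; -0.66 and adjusted p = 0.0540 as deposited). The deposited mean of Trib3 was 60.7 in fat Treg, below the filter level of 65.9, so the size of its difference is uncertain. Eif2ak3 was higher in fat Tconv (1.29 ± 0.15, limma adjusted p = 8.18e-06) and 0.02 ± 0.15 in Treg, from the same arrays as its Treg difference above. Its values were 214, 252 and 180 in fat Treg, against 199, 197 and 239 in lymph node Treg, and 586, 531 and 479 in fat Tconv, against 238, 214 and 200 in lymph node Tconv.

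In the Xbp1 branch, Dnajb9 read 1930, 1623 and 1430 in fat Treg, against 604, 629 and 541 in lymph node Treg. It read 2292, 1775 and 1986 in fat Tconv, against 469, 503 and 643 in lymph node Tconv. The differences of 1.48 ± 0.16 (limma adjusted p = 1.31e-06) and 1.91 ± 0.16 (limma adjusted p = 1.63e-07) came with no overlap. Ern1 read 818, 409 and 577 in fat Treg, against 237, 239 and 280 in lymph node Treg, and 651, 351 and 404 in fat Tconv, against 227, 263 and 256 in lymph node Tconv. Its differences were 1.20 ± 0.25 (limma adjusted p = 0.00106) and 0.87 ± 0.25 (limma adjusted p = 0.0163), with 2.92 and 1.77 on the Ern1 probe set of mean 139 and 0.16 and 0.03 on that of mean 103. Xbp1 was 1.16 ± 0.28 higher in fat Tconv (limma adjusted p = 0.00603) and 0.54 ± 0.28 in Treg, where it passed only with the block of array file numbers as a term (limma adjusted p = 0.146 without it and 0.0202 with it). Edem1 was 1.12 ± 0.17 higher in fat Tconv (limma adjusted p = 9.75e-05), but its second probe set gave 0.04 there and -0.45 in Treg, so the tissue difference of this gene rests on 1 of 2 probe sets.

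Dnajc3 was the member of that branch that was lower in fat. It read 292, 244 and 274 in fat Treg, against 772, 886 and 705 in lymph node Treg, and 403, 568 and 471 in fat Tconv, against 1046, 1009 and 937 in lymph node Tconv. Every fat array was below every lymph node array, with differences of -1.54 ± 0.17 in Treg (limma adjusted p = 2.72e-06) and -1.06 ± 0.17 in Tconv (limma adjusted p = 0.00025). The other Dnajc3 probe sets were negative too, from -0.44 to -1.11 in Treg and from -0.06 to -1.05 in Tconv.

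In the Atf6 branch, Atf6 read 307, 240 and 258 in fat Treg, against 84.1, 82.1 and 93.3 in lymph node Treg. It read 112, 129 and 134 in fat Tconv, against 52.9, 61.6 and 69.5 in lymph node Tconv. The differences were 1.63 ± 0.13 (limma adjusted p = 7.47e-08) and 1.03 ± 0.13 (limma adjusted p = 3.00e-05). Atf6 is dim outside fat: its deposited mean of 56.6 in lymph node Tconv lies below the filter level of 65.9, so the size of the Tconv difference is uncertain. Hspa5 read 5216, 4956 and 4184 in fat Treg, against 2547, 2835 and 3715 in lymph node Treg, and 4668, 5311 and 4492 in fat Tconv, against 2000, 2165 and 2216 in lymph node Tconv. These were 0.67 ± 0.16 (limma adjusted p = 0.00353) and 1.18 ± 0.16 (limma adjusted p = 4.31e-05), with no overlap. Manf, a secreted ER stress protein, was 0.62 ± 0.22 higher in fat Treg (limma adjusted p = 0.0371), a call lost in 7 of 15 alternatives, including that without the last block of array file numbers (0.37, adjusted p = 0.264); in Tconv it was 0.51 and passed only with the block of array file numbers (limma adjusted p = 0.0292). Hyou1, Pdia4, Creld2 and Sdf2l1 ranged from -0.27 to 0.27 and did not pass.

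**Figure D4:**
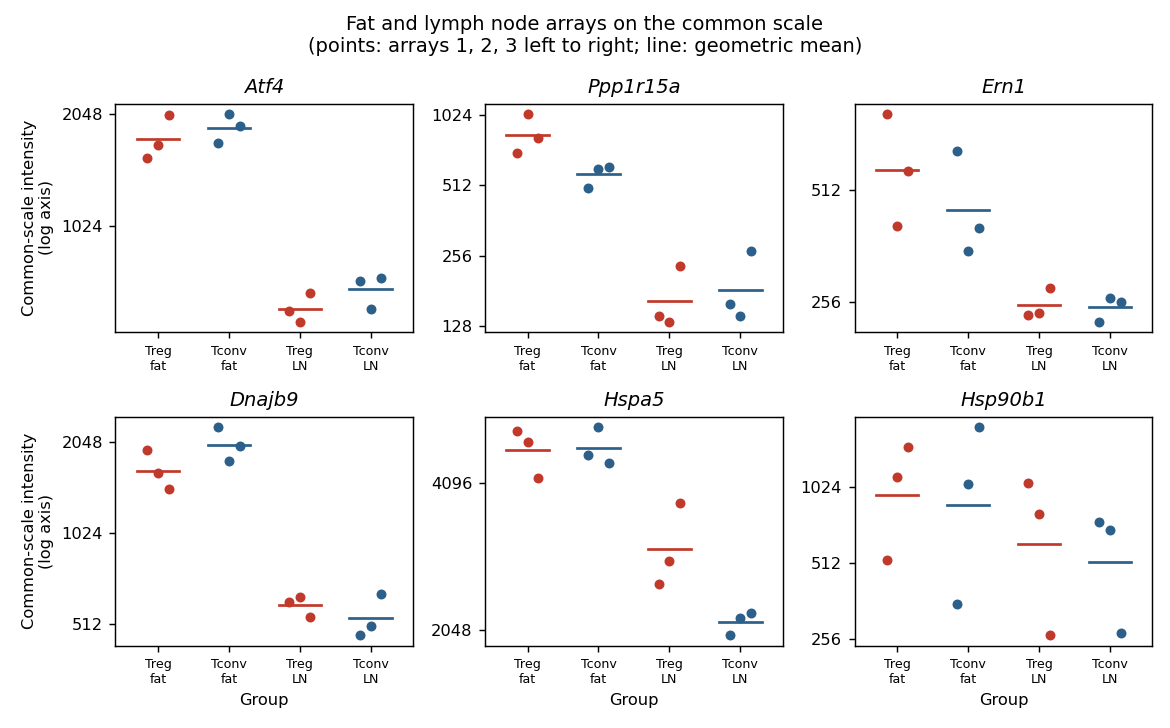
Common-scale intensity (log axis) of 6 genes in fat Treg, fat Tconv, lymph node Treg and lymph node Tconv; each point is 1 array, each line the geometric mean of 3. Atf4, Ppp1r15a, Ern1, Dnajb9 and Hspa5 lie higher in every fat array than in every lymph node array of the same lineage, while Hsp90b1 spreads from 525 to 1477 in fat Treg and from 264 to 1060 in lymph node Treg.

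Hsp90b1 (Grp94, the ER Hsp90) varied more within groups than any other member. Its deposited values were 593, 1271 and 1783 in fat Treg, 357, 1239 and 2116 in fat Tconv, 1033, 773 and 231 in lymph node Treg and 742, 622 and 229 in lymph node Tconv, with 1483, 1521 and 1201 in thymus Treg and 784, 1411 and 1014 in thymus Tconv. The 4 low values, 593, 357, 231 and 229, are the 4 arrays of the last block of file numbers. Its pooled SD within groups was 0.89 log2 units, at percentile 99.8 of all genes, against a median of 0.22 both over the members and over all genes. Pdia3, with 0.54, was at percentile 97.4, and Dnajb11, with 0.10, at percentile 1.64. Fat against lymph node gave Hsp90b1 differences of 0.65 ± 0.57 in Treg and 0.75 ± 0.57 in Tconv, neither of which passed. With the block of array file numbers as a term, they became 0.65 ± 0.17 (limma adjusted p = 0.00812) and 0.75 ± 0.17 (limma adjusted p = 0.00571). Calr, a lectin chaperone, passed in that fit as well, with 0.49 in Treg (limma adjusted p = 0.00693) and 0.64 in Tconv (limma adjusted p = 0.00218), while the fit without the term gave adjusted p of 0.134 and 0.0688. That fit called 18 members in Treg (background 43.2% in that fit) and 17 in Tconv (background 31.2%); the other gains were Chac1 in Treg (0.29, limma adjusted p = 0.0377) and P4hb in Tconv (0.45, limma adjusted p = 0.0432). The second Hsp90b1 probe set gave 0.19 ± 0.20 in Treg and 0.54 ± 0.20 in Tconv.

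Of the lectin chaperones, disulfide enzymes and cochaperone, only Ero1l differed between fat and lymph node in the fit without the block, and only in Treg. On the common scale it read 2789, 2662 and 2831 in fat Treg, against 793, 910 and 1044 in lymph node Treg, and 1312, 897 and 955 in fat Tconv, against 769, 886 and 949 in lymph node Tconv. The Treg arrays did not overlap (1.60 ± 0.16, limma adjusted p = 8.42e-07) and the Tconv arrays did (0.27 ± 0.16, which did not pass). The second Ero1l probe set gave 2.92 in Treg and 2.02 in Tconv, and the third 1.71 and 0.87, so the absence of a call in Tconv is that of the brightest probe set alone. Canx, Pdia3, Pdia6, P4hb and Dnajb11 ranged from -0.29 to 0.45 and did not pass.

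Of the degradation genes, Herpud1 was higher in fat Treg, with 428, 508 and 521 against 315, 286 and 266 in lymph node Treg (0.75 ± 0.12, limma adjusted p = 0.00011), and -0.11 in Tconv. Sel1l read 972, 1080 and 1029 in fat Treg, against 1147, 1304 and 1478 in lymph node Treg, and 764, 902 and 820 in fat Tconv, against 1053, 1334 and 1233 in lymph node Tconv. Its differences were -0.34 ± 0.13 (limma adjusted p = 0.0446) and -0.54 ± 0.13 (limma adjusted p = 0.00509) on the common scale, but 0.00 and -0.19 as deposited, where neither passed, and a dimmer Sel1l probe set gave 0.80 and 0.88; no direction is drawn for this gene. Syvn1 was 0.49 ± 0.17 higher in fat Tconv (limma adjusted p = 0.0425), a call lost in 8 of 15 alternatives. The ERSE in the sequences above thus stood before Hspa5, higher in fat, before Dnajc3, lower in fat, before Syvn1, higher in fat Tconv, and before Pdia6, Canx, Creld2, Calr and Hsp90b1, which did not pass in the fit without a block.

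Without the last block of array file numbers (fat arrays 1 and lymph node arrays 3), 12 members differed in Treg (background 26.4% in that fit) and 8 in Tconv (background 14.2%); Asns, Ern1, Xbp1, Sel1l and Syvn1 were lost in Tconv, and Manf and Sel1l in Treg. Atf4, Ppp1r15a, Dnajb9, Atf6, Hspa5 and Dnajc3 passed in both lineages in that fit and in each of the other alternatives tried.

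**Figure D5:**
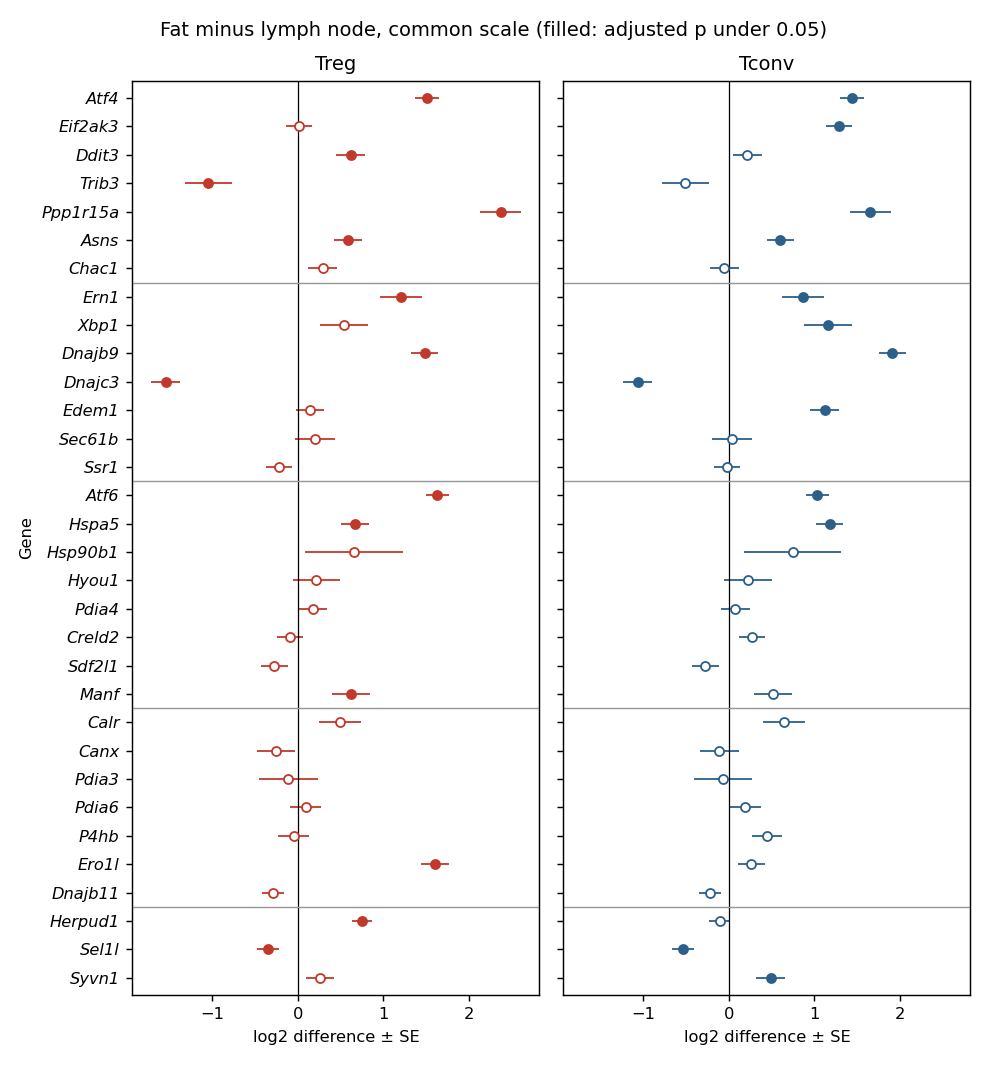
Log2 difference between fat and lymph node with its SE for each gene in Treg and in Tconv (3 arrays a group, common scale); filled points have an adjusted p under 0.05. There are 14 filled points in Treg and 13 in Tconv, led by Ppp1r15a (2.37) in Treg and Dnajb9 (1.91) in Tconv.

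Other features moved with tissue, and their part in the differences above was not tested. Of 20 immediate early genes and genes of the same early response, 17 were higher and 1 lower in fat Treg and 18 higher and 1 lower in fat Tconv, with a median of 2.89 in both; over all genes the shares were 16.3% higher and 18.2% lower in Treg and 11.3% higher and 11.6% lower in Tconv, which also stand against the counts that follow. The summed deposited intensity of the immediate early genes was 88330 to 105052 in fat Treg and 72613 to 83135 in fat Tconv, against 14675 to 20432 in lymph node Treg and 13110 to 17298 in lymph node Tconv. All 6 stromal and endothelial markers tested were higher in both fat lineages, summing over the 10 measured to 2941 to 9050 in fat Treg and 2898 to 5847 in fat Tconv, against 360 to 424 in lymph node Treg and 382 to 441 in lymph node Tconv. Of 13 macrophage markers tested, 10 were higher and 1 lower in fat Treg, and 5 were higher in fat Tconv. The 14 macrophage markers measured summed to 2392 to 7609 in fat Treg and 5565 to 8605 in fat Tconv, against 7865 to 8528 in lymph node Treg and 6356 to 6907 in lymph node Tconv, sums led by Ctss, while Csf1r averaged 788 in fat Treg and 652 in fat Tconv, against 146 in lymph node Treg and 156 in lymph node Tconv. Of 12 cell division genes, 0 were higher and 2 lower in fat Treg (median -0.37) and 3 higher and 0 lower in fat Tconv (median 0.84), with sums of 4879 to 6080 in fat Treg and 6428 to 11019 in fat Tconv, against 3559 to 5172 in lymph node Treg and 3339 to 4573 in lymph node Tconv. The 6 adipocyte markers measured summed to 2783 to 6243 in fat Treg and 2230 to 5276 in fat Tconv, against 192 to 231 in lymph node Treg and 195 to 230 in lymph node Tconv. Plasma cells are rich in these ER genes: the 7 plasma cell markers measured summed to 5823 to 6927 in fat Treg and 1913 to 2716 in fat Tconv, against 1804 to 2452 in lymph node Treg and 705 to 1227 in lymph node Tconv. Of the 6 plasma cell markers tested, 5 were higher and 0 lower in fat Treg (median 0.94), and 2 were higher and 0 lower in fat Tconv (median 0.67). Irf4 and Prdm1 of this list are also expressed by Treg, and Tnfrsf17 averaged 33.3 or less in every group. Whether plasma cells contributed was not tested. No marker is listed at 0, since the values carry a background.

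Further genes of the same pathway were read from lists of its other members. In fat Treg against fat Tconv the shares over all genes were 11.6% called, 6.36% higher and 5.24% lower. Of 28 other Atf4 and amino acid response genes, 3 were higher and 0 lower (10.7% called, near the background): Atf3 (2.99, limma adjusted p = 2.68e-10), a stress factor that is also on the immediate early list, Eprs (1.14) and Pck2 (0.60). Of 24 other folding genes, 3 were higher (Nucb2 1.96, Lman1 0.95, Hspa13 0.74) and 2 lower (Rcn1 -1.31, Mogs -0.68), 20.8% called. Of 16 other sensors and regulators, Creb3l2 (1.58), a membrane-bound relative of Atf6, and Tnfrsf10b (0.99), a death receptor induced by Chop, were higher, and Bcl2l11 (-1.55), the death factor Bim, lower, 18.8% called. None of 28 translocation and glycosylation genes and none of 20 other degradation genes passed in that limma fit, with 6 and 3 at an unadjusted p under 0.05.

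Nucb2 and Rcn1, calcium-binding proteins of the secretory pathway, were the other folding genes called in all 3 tissues. Nucb2 was higher in Treg in each (1.47 in lymph node and 0.92 in thymus). Rcn1 was higher in Treg of lymph node (1.38) and thymus (1.70) and lower in Treg of fat, a difference of differences of -2.69 between fat and lymph node (limma adjusted p = 0.000608).

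Between fat and lymph node, 1 of 28 translocation and glycosylation genes was higher and 5 lower in Treg, and 0 higher and 6 lower in Tconv. Over all genes 18.2% were lower in Treg, about the same share, and 11.6% in Tconv. The medians of the list were -0.15 and -0.22, against 0.01 and -0.03 over all genes. Sec11a (a signal peptidase subunit) was -0.49 and -0.44, Stt3b (a catalytic subunit of oligosaccharyltransferase) -0.72 and -0.55, and Spcs3 -0.55 and -0.63 in Treg and Tconv. Of 20 other degradation genes, 3 were higher and 1 lower in Treg (20% called), and 1 higher and 2 lower in Tconv (15% called). Over all genes 34.5% and 22.9% were called. Changes reached 1.15 in Treg and 0.74 in Tconv, and Derl2, a channel component, was lowest (-1.21 and -1.57). Of 24 other folding genes, 4 were higher and 3 lower in Treg, and 1 higher and 2 lower in Tconv. Of 16 other sensors and regulators, 4 were higher and 2 lower in Treg, and 2 higher and 1 lower in Tconv. Of the other Atf4 and amino acid response genes, 5 were higher and 5 lower in Treg (35.7% called, background 34.5%) and 3 higher and 4 lower in Tconv (25% called, background 22.9%), both near the background. Those higher were led in both lineages by Atf3 (5.93 and 3.26), Cebpb (2.78 and 2.68) and Slc3a2 (1.76 and 1.81), and Stc2 was lower in both (-1.05 and -1.55).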

How the data were processed

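Probe set intensity values were deposited by the authors on a linear scale; per the labels' design text they come from RMA in GenePattern, and which arrays were normalized together is not given in the sources used here. Of 45101 probe sets, 34945 carried 1 symbol, 932 several and 9160 none; 64 control probe sets were left out. log2 values of 18193 genes, 1 probe set each, were filtered (mean of 65.9 in at least 1 group) and fitted with limma 3.58.1 in R 4.3.3, 1 coefficient per group over all 18 arrays (12 residual degrees of freedom), tested on simulated data first. The members, lists and alternatives were chosen with earlier results of these data known. All 32 members are named, with values per array for those that differed between Treg and Tconv or in both fat comparisons, and up to 3 genes per direction of each other list. Same-numbered Treg and Tconv arrays deviated together in every tissue (r 0.363 to 0.675), so replicate number was tried as a block. Arrays have no depth; 3 per group limit the precision. Promoter windows are RefSeq's.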

Additional observations from a re-analysis of the deposited data

Results flagged for a closer look

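In 4 members the difference between Treg and Tconv itself differed between fat and lymph node, in a limma test of the difference of differences (4.92% of all genes tested passed that test). Ero1l was 1.40 further up in fat and Herpud1 0.78 further up. Eif2ak3 was -1.32 and Edem1 -1.02 in the same test, both with a Treg difference further down in fat. For Ero1l and Eif2ak3 the difference passed in each of 21 alternatives, with the weakest limma adjusted p at 0.00192 and 0.0286; for Herpud1 it was lost in 11 and for Edem1 in 14.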

How the results depend on the processing

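Single-gene calls between Treg and Tconv held in 78 of 84 recomputations in fat, 8 of 15 in lymph node and 39 of 42 in thymus; those between fat and lymph node held in 191 of 210 in Treg and 178 of 195 in Tconv, and those of the fat minus lymph node Treg effect in 59 of 84. The cause of the losses was not tested. With the mean of all probe sets of a gene, Sel1l in fat against lymph node Treg turned to 0.11. In lymph node the count of members was 2 with each array centred, 3 with the replicate block, 0 without both arrays numbered 3 (an alternative chosen after seeing the data) and 0 to 1 on leaving out 1 array, with a median of 0.087 to 0.15. The replicate block gave 9 in fat and 4 in thymus. The median between fat and lymph node Treg was 0.57 as deposited, 0.14 centred and 0.19 to 0.30 with 1 array left out; in Tconv it was 0.60 as deposited, 0.42 over all probe sets and 0.27 to 0.37 with 1 array left out. Without the last block of array file numbers, also chosen after seeing the data, 8 members passed in Tconv. For the Treg effect in fat minus lymph node the count was 2 with centring, 2 with only the arrays compared and 2 to 3 with 1 array left out; in thymus minus lymph node it was 1 with the replicate block and 0 to 1 with 1 array left out (1 without Tconv lymph node array 1). Apart from the calls named here and in the report, the replicate block changed none. Dim probe sets limit what can be read for Pdia4 and Sdf2l1, for Atf6 outside fat and for Trib3 in fat Treg, which lie near or below the filter level. Asns averaged 71.8 in thymus Tconv and 78.6 in lymph node Tconv, close to that level, so the sizes of its differences carry the same limit.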
